A study of Mus musculus with 8 samples.

Results

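The regions described here carried a phospho-CREB1 peak in C26 replicate 2 and in both CTRL libraries and no peak in C26 replicate 1. Peaks of the 4 deposited lists were merged wherever they overlapped by at least 1 bp, which gave 17607 regions, and 309 of these met the rule. They are called the C26-replicate-1-missing regions below. They made up 3.44% of the 8972 regions with a peak in both CTRL lists, and 9.40% of the 3287 regions with a peak in both CTRL lists and in C26 replicate 2. The mirror class, with a peak in C26 replicate 1 and both CTRL lists and none in C26 replicate 2, held 2924 regions, which is 49.5% of the 5902 regions that C26 replicate 1 shared with both CTRL lists. The regions were chosen by these peak calls, so the counts are a description of the selection. Peak presence, strength and width are given without a test for the same reason.

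The libraries came from muscle of male Balb/c mice. C26 mice had been injected under the skin with cells of the C26 line, a cachexia-inducing colon carcinoma of the mouse, at 2 months of age. CTRL mice are named as controls, and an age of 2 months is given for all 8 samples. Each group had 2 phospho-CREB1 libraries, each with its own input, and the labels do not say whether the replicates were separate animals. The protocol also mentions rolipram, an inhibitor of cAMP-degrading phosphodiesterases, or vehicle for tumor-bearing mice, and does not say which these mice received. The tissue is named gastrocnemius in the sample labels and quadriceps in the extraction protocol, and the antibody is given in the protocol as one against CREB or phospho-CREB1. Whole muscle holds nuclei of fibers and of other cells, and no expression values were used here, so the labelled tissue could not be checked against its markers. C26 replicate 2 had 4051 peaks and C26 replicate 1 had 7482, against 10835 in CTRL replicate 1 and 14975 in CTRL replicate 2. Read depth is unknown, and a missing peak means only that the threshold was not passed in that library.

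CREB1 is a leucine-zipper transcription factor that binds the cAMP response element (CRE), a palindrome whose shorter core also binds it more weakly. Kinases such as protein kinase A phosphorylate it when cAMP rises, which lets it recruit coactivators. In muscle it is known for the control of metabolic genes and of the kinase Sik1, and of immediate early genes such as Fos. Many of its sites lie in promoters near transcription starts, and others lie in enhancers.

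Of the 20 strongest C26-replicate-1-missing regions at gene ends, 18 had a promoter in the RefSeq table, and some of these promoters are shown because none of the promoters searched under the class held a full CRE. The strength of a region is its lowest percentile by −log10 q within the 3 lists that have a peak there. The CRE core (TGACG, or CGTCA on the other strand) was present in the 250 bases before the start in 7 of the 18, only after the start in 2 and nowhere in the 300 bases searched in 9. All 7 with a core before the start are printed first, in order of strength, followed by the 2 strongest without a core. Each sequence is the 250 bases before an annotated start, on the strand of the gene, from RefSeq GRCm38.p6. The core is in capitals, save in the last sequence, where only full CREs are and a further core (cgtca) is in lowercase. The last sequence is for contrast: it is the promoter of Nup133, a nuclear pore subunit, the strongest region with a peak in all 4 lists and a full CRE (TGACGTCA, in capitals) in these bases.
Ap3d1, chr10:80742276-80742525, minus strand: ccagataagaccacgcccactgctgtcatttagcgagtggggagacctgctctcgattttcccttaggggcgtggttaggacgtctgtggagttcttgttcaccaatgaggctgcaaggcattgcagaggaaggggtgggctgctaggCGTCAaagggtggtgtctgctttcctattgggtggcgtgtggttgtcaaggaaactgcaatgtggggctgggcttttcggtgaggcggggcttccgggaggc
Gemin4, chr11:76217573-76217822, minus strand: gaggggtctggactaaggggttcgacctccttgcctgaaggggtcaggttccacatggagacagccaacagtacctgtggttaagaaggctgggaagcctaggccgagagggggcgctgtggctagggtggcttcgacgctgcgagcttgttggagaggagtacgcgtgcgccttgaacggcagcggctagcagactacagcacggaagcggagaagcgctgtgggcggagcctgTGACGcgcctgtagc
Crebzf, chr7:90442531-90442780, plus strand: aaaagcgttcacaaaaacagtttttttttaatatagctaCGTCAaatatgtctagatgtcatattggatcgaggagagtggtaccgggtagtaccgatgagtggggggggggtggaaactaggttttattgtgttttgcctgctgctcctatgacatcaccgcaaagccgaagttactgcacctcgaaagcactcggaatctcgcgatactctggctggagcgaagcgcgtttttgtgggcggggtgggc
Rab3gap2, chr1:185203918-185204167, plus strand: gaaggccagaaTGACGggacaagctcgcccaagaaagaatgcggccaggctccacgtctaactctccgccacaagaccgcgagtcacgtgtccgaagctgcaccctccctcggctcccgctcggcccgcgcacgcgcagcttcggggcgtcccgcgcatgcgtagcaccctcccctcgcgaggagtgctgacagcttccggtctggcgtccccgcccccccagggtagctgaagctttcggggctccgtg
Slc9a8, chr2:167421460-167421709, plus strand: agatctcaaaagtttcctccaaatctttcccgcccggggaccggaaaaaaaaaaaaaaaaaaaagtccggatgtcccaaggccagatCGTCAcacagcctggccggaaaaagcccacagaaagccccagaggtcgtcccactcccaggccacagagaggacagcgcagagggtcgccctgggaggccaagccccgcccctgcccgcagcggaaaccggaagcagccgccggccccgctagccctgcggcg
Numb, chr12:83921935-83922184, minus strand: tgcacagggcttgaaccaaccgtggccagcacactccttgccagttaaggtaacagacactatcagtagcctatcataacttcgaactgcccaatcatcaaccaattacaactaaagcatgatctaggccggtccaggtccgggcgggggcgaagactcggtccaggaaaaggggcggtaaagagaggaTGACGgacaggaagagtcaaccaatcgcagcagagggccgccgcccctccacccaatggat
Creld1, chr6:113483106-113483355, plus strand: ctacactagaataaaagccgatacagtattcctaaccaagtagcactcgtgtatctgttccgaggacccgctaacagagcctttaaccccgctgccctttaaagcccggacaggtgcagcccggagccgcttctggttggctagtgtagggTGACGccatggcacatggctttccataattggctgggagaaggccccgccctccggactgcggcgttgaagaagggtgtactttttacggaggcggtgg
Hjurp, chr1:88277580-88277829, minus strand: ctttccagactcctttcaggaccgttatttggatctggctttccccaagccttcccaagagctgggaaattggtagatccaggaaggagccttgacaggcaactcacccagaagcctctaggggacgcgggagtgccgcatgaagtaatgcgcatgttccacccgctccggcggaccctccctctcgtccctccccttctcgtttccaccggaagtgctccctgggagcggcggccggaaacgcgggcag
Rab4b, chr7:27178884-27179133, minus strand: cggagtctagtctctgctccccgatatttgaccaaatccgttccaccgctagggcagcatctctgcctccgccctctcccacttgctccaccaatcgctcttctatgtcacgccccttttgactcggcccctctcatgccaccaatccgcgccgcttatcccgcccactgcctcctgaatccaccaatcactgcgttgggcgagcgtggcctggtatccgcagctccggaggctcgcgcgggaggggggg
Nup133, chr8:123949266-123949515, minus strand: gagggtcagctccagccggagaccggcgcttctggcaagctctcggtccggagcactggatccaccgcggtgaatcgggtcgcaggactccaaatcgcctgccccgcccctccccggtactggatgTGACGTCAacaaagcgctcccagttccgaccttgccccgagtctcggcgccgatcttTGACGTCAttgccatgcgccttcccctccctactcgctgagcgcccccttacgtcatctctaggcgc

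The core in the promoter of Creld1, a membrane protein with epidermal growth factor-like repeats, began 99 bases before the start and lay 0 bp from the CTRL replicate 2 summit. In Numb, an endocytic adaptor that restrains Notch signaling, the core began 61 bases before the start and 6 bp from the summit. The core in Gemin4, a member of the complex that assembles spliceosomal particles, lay 23 bp from the summit. In Ap3d1, a subunit of an adaptor complex for transport to lysosomes, it lay 47 bp from the summit. In the other 3 (Rab3gap2, Crebzf and Slc9a8) it lay 121, 172 and 195 bp from the summit. The promoter of Nup133 held 2 full CREs, and its peaks reached a fold enrichment over input of 48.5 in C26 replicate 2, 93.3 in C26 replicate 1, 110 in CTRL replicate 1 and 157 in CTRL replicate 2. The highest folds among the 309 C26-replicate-1-missing regions were 11.4 in C26 replicate 2, 17.6 in CTRL replicate 1 and 20.8 in CTRL replicate 2.

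The C26-replicate-1-missing regions held peaks of low to middle strength. Their fold enrichment over input, the peak caller's own value on each library's scale, had a median of 5.52 in C26 replicate 2 (range 3.74 to 11.4). It had a median of 5.90 in CTRL replicate 1 (3.29 to 17.6) and 7.99 in CTRL replicate 2 (3.55 to 20.8). By percentile of −log10 q within a list, with 100 the strongest, the medians were 26.2 in C26 replicate 2, 42.4 in CTRL replicate 1 and 57.2 in CTRL replicate 2. No region of the 309 stood above the 90th percentile of any list, and the highest percentiles were 81.7, 89.1 and 89.9 in the same order of libraries. Below the 25th percentile stood 145 regions in C26 replicate 2, 80 in CTRL replicate 1 and 42 in CTRL replicate 2. The lists differ in length, so a percentile that is lower in one list than in another shows no change in binding.

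**Figure D1:**
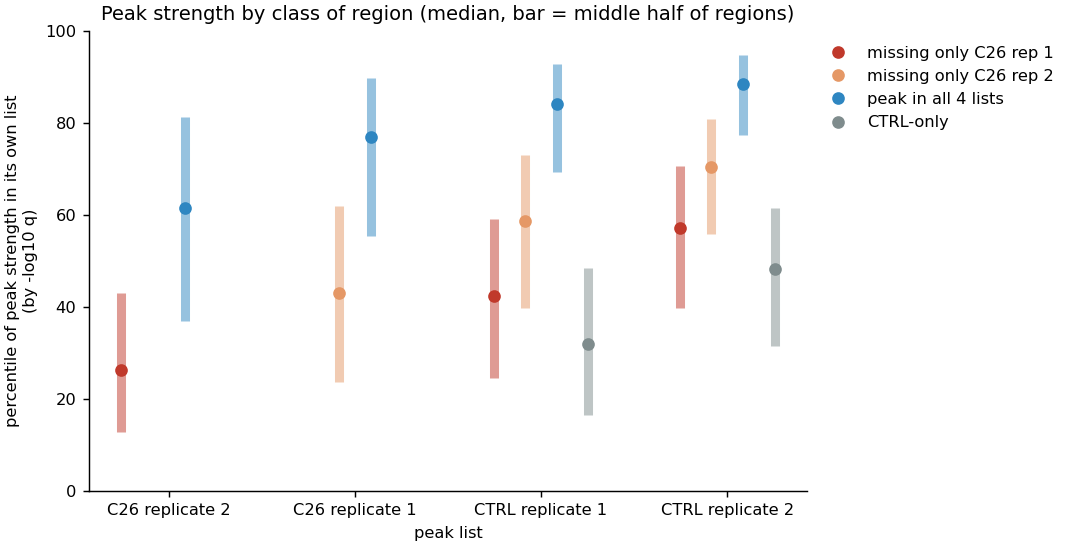
Percentile of peak strength within each list (vertical axis, 100 strongest) for 4 classes of regions by peak list (horizontal axis). Points are medians over regions and bars span the 25th to 75th percentile of regions. The C26-replicate-1-missing regions had medians of 26.2, 42.4 and 57.2 in C26 replicate 2, CTRL replicate 1 and CTRL replicate 2.

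Regions with a peak in all 4 lists had medians at the 61.6, 84.1 and 88.4 percentiles of the same 3 lists. The mirror class stood between, with medians of 58.7 in CTRL replicate 1 and 70.4 in CTRL replicate 2, and a median of 43.1 in C26 replicate 1. CTRL-only regions, with a peak in both CTRL lists and neither C26 list, were lower still in the CTRL lists, at 32.0 and 48.2. Strength was also less alike between libraries in the C26-replicate-1-missing regions. Across the 309 regions, Spearman's rho between percentiles was 0.28 for C26 replicate 2 with CTRL replicate 1, 0.18 for C26 replicate 2 with CTRL replicate 2, and 0.38 for the pair of CTRL lists. Across the 2978 regions of all 4 lists it was 0.74, 0.72 and 0.89 in the same order. The narrower range of strength that the rule leaves in the first class goes with these values, and its part in them was not tested.

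Summits of the 3 peaks lay a median of 127 bp apart at their widest in the C26-replicate-1-missing regions, against 64 bp for the same 3 lists in regions of all 4 lists. They lay within 100 bp of each other in 39.8% of the first class and 66.9% of the second. The regions had a median width of 679 bp (361 to 2760 bp), and 12 of the 309 held more than 1 peak of a list. The nearest C26 replicate 1 peak lay a median of 32110 bp away. It lay within 1000 bp of 14 regions and within 10000 bp of 71.

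Among the regions closest to the boundary of the rule were 2 beside genes of the AP-1 family. The region nearest to a C26 replicate 1 peak was beside Fos, an immediate early gene and a textbook CREB1 target, at chr12:85471694-85472974 (mm10; the peaks have no strand). Its CTRL replicate 2 summit lay 1514 bp from the start of Fos, and a C26 replicate 1 peak lay 366 bp from the region. Its fold enrichment was 6.12 in C26 replicate 2, 8.80 in CTRL replicate 1 and 8.94 in CTRL replicate 2. Just outside the rule, a region 2671 bp from Fosl2, which encodes a Fos-related subunit of AP-1, overlapped a C26 replicate 1 peak by 137 bp. Its fold enrichment reached 4.55 in C26 replicate 2, 3.60 in C26 replicate 1, 5.75 in CTRL replicate 1 and 10.4 in CTRL replicate 2. The other regions just inside lay 378 bp (Zswim4) and 459 bp (Fam214a) from a C26 replicate 1 peak, and those just outside overlapped one by 122 bp (nearest gene Tbl1xr1) and 171 bp (Ybx1).

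Position along the genome was not used by the rule, and was compared with 3 larger classes. A region was counted near a gene end when its CTRL replicate 2 summit was no more than 1000 bp from an end of 1 of 21883 protein-coding genes. By this measure 134 of the 309 regions (43.4%, 95% Wilson interval 38.0 to 48.9%) were near a gene end, 94 (30.4%) lay farther inside a gene and 81 (26.2%) lay outside genes. In the mirror class the shares were 73.9%, 17.9% and 8.17%. In regions with a peak in all 4 lists they were 76.6%, 15.0% and 8.39%, and in CTRL-only regions 53.8%, 29.6% and 16.6%. The median distance from summit to the nearest coding start in the RefSeq table was 5249 bp. It was 132 bp in the mirror class, 132 bp in regions of all 4 lists and 869 bp in CTRL-only regions. More than 50000 bp from any start in that table lay 18.4% of the C26-replicate-1-missing regions. The share was 13.2% in the mirror class and 10.2% in regions of all 4 lists. The table had starts for 17491 of the 21883 genes, so these distances can be too long. The Prim2 region lay 25 bp from a gene end and 50063 bp from a start in the table. The regions on chromosome 18 had no distance. In the shares beyond 50000 bp they stayed in the total and were not counted as far. Of the regions away from gene ends, 19 lay within 1000 bp of a coding start.

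The odds of lying near a gene end were lower in the C26-replicate-1-missing regions in all 3 comparisons made, by Fisher's exact test over regions (two-sided, Benjamini-Hochberg adjusted over the 3). The odds ratio was 0.270 against the mirror class (95% interval 0.212 to 0.343, exact test, adjusted p = 1.54e-26) and 0.234 against regions of all 4 lists (0.184 to 0.297, adjusted p = 9.20e-32). Against CTRL-only regions it was 0.657 (0.518 to 0.833, exact test, adjusted p = 0.000598). Regions are not replicates of a condition: membership rests on the lack of a peak in 1 library, and these p-values cover counting error over regions. The difference from CTRL-only regions ended when a CTRL list was left out of the rule, with odds ratios by the same exact test of 0.954 (p = 0.659) without CTRL replicate 1 and 0.912 (p = 0.435) without CTRL replicate 2. With every list trimmed to its 4051 strongest peaks, only 28 of the 309 regions qualified again among 149, of which 74.5% were near a gene end, and the odds ratio to the mirror class was 0.649 (exact test, p = 0.0525).

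**Figure D2:**
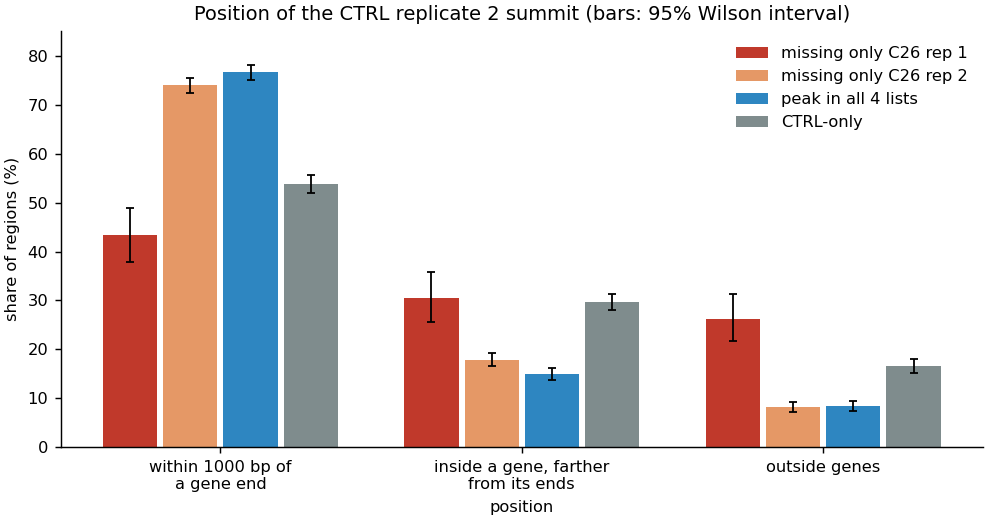
Share of regions (vertical axis, %) whose CTRL replicate 2 summit lay within 1000 bp of a gene end, farther inside a gene, or outside genes, for 4 classes. Error bars are 95% Wilson intervals over regions. The C26-replicate-1-missing regions had 43.4% near gene ends, below the 73.9%, 76.6% and 53.8% of the other classes.

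The share near gene ends was lowest in the weakest regions of every class, so the comparison was repeated within quartiles of CTRL strength (the lower of the 2 CTRL percentiles). In the weakest quartile 33.3% of 120 C26-replicate-1-missing regions were near a gene end, against 59.7% of the mirror class, 37.3% of the regions of all 4 lists and 47.0% of CTRL-only regions. In the next quartile the shares were 45.3% of 106, against 72.1%, 55.9% and 58.8%. In the one above they were 55.0% of 80, against 79.3%, 73.4% and 69.3%. The strongest quartile held 3 of the C26-replicate-1-missing regions. The Mantel-Haenszel odds ratio over the quartiles was 0.327 against the mirror class (95% interval 0.256 to 0.419), 0.618 against regions of all 4 lists (0.470 to 0.812) and 0.567 against CTRL-only regions (0.444 to 0.724).

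The same pattern was read the other way round, starting from the 3287 regions with a peak in both CTRL lists and C26 replicate 2 and asking which lacked a C26 replicate 1 peak. The share was 27.7% of the decile that was weakest in C26 replicate 2, and 1.83% of decile 8. It was 0 of 329 in deciles 9 and 10 alike, which allows a share of up to 0.912%. Away from gene ends 20.1% of 871 regions lacked the peak, and near gene ends 5.55% of 2416. In each of deciles 1 to 8 the share was higher away from gene ends, for example 44.2% against 18.2% in decile 1 and 18.4% against 4.42% in decile 4. For C26 replicate 2, the corresponding shares among regions of C26 replicate 1 and both CTRL lists were 52.3% away from gene ends and 48.6% near them. Whether the libraries differ in this was not tested. A low share near gene ends was not particular to the C26-replicate-1-missing regions: of the 100 regions missing only CTRL replicate 1, 30.0% (21.9 to 39.6%) were near one, an interval that overlaps theirs.

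**Figure D3:**
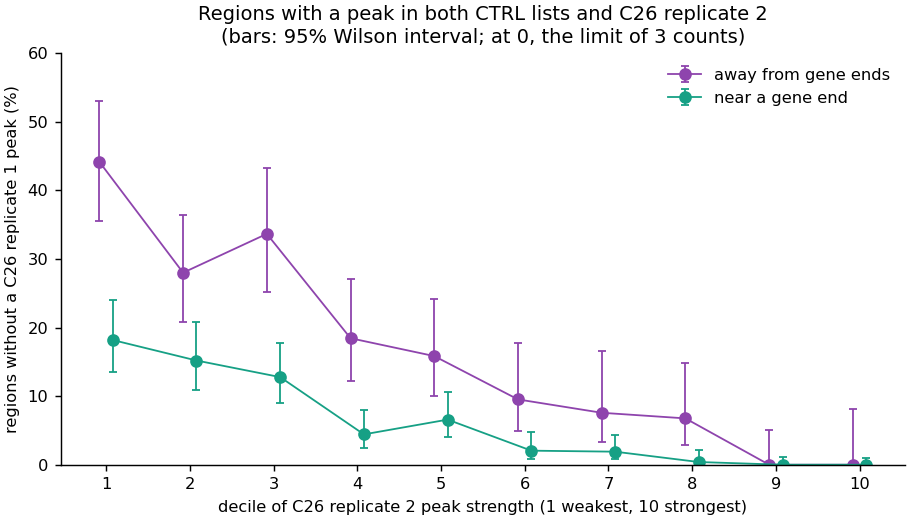
Share of regions with a peak in both CTRL lists and C26 replicate 2 that had no C26 replicate 1 peak (vertical axis, %), by decile of C26 replicate 2 peak strength (horizontal axis, 1 weakest). Lines separate regions away from and near gene ends, and error bars are 95% Wilson intervals, or the limit of 3 counts at a share of 0. The share was 0 in deciles 9 and 10, and higher away from gene ends in deciles 1 to 8.

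Of the 309 regions, 127 lay within 1000 bp of a coding start of the RefSeq table. They were matched to 127 of its promoters, each searched on both strands over 300 bases (250 before to 50 after the start). None of the 127 promoters held the full CRE, and a count of 0 allows a share of up to 2.36%. The share was 3.35% of 1940 promoters in the mirror class, 11.1% of 2083 in regions of all 4 lists, 1.11% of 1349 in CTRL-only regions and 2.23% of all 21262 coding promoters. The CRE core, which also counts inside a full CRE, was found in 37 of 127 (29.1%, 21.9 to 37.6%). It was found in 39.2% of the mirror class, 61.4% of the regions of all 4 lists, 25.1% of CTRL-only regions and 23.6% of all coding promoters. The core lay within 100 bp of the summit in 20.5% of the C26-replicate-1-missing regions with a promoter, against 29.7%, 51.8% and 16.8% in the other 3 classes in that order.

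These shares followed strength. In the weakest quartile of CTRL strength the core was present in 21.6% of 37 promoters of the C26-replicate-1-missing regions, against 21.3% of the mirror class, 24.5% of the regions of all 4 lists and 19.6% of CTRL-only regions. In quartile 3 it was present in 39.1% of 46, against 42.6%, 45.3% and 34.4%. All of these Wilson intervals overlapped that of the C26-replicate-1-missing regions. The full CRE was at 0 of 286 mirror regions and 0 of 49 regions of all 4 lists in the weakest quartile too, at 2 of 639 CTRL-only regions there, and at 15.8% of regions of all 4 lists in the strongest. Other promoter letters were common: the GC box (GGGCGG) occurred in 67.7% of the promoters and the CCAAT box in 47.2%, against 46.2% and 38.2% of all coding promoters. The GC box stood at 75.2% in the mirror class and the CCAAT box at 45.5% in the regions of all 4 lists, both within the intervals of the 127 promoters. The E-box (CACGTG) occurred in 10.2% of the 127, against 7.84% of all coding promoters. A match of letters is a description and not a binding site.

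**Figure D4:**
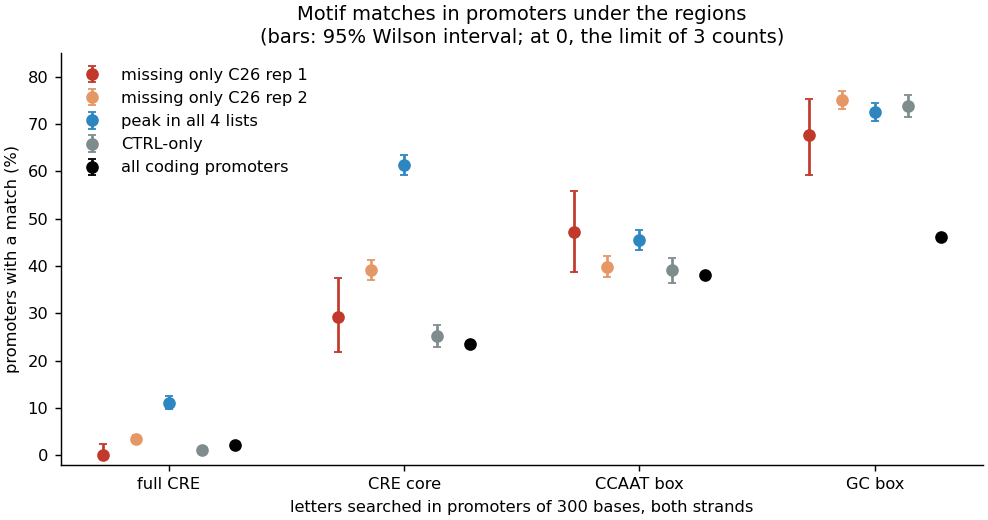
Share of promoters (vertical axis, %) with a match to 4 motifs (horizontal axis) under 4 classes of regions and in all coding promoters. Error bars are 95% Wilson intervals, or the limit of 3 counts at a share of 0. The C26-replicate-1-missing regions had the full CRE in 0 of 127 promoters and the core in 29.1%.

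A region is said to touch a gene when its CTRL replicate 2 summit lay within 1000 bp of an end of that gene. In this sense 116 regions touched 1 gene and 18 touched 2 or more, 153 genes in all. Regions that touched 2 or more genes were 13.4% of those near gene ends, against 17.3% in the mirror class, 23.3% in regions of all 4 lists and 14.7% in CTRL-only regions. By lowest percentile, the strongest region near a gene end lay at Hjurp, the chaperone that loads the centromeric histone CENP-A. Its fold enrichment was 7.87 in C26 replicate 2, 4.86 in CTRL replicate 1 and 7.81 in CTRL replicate 2, at percentiles 73.0, 78.4 and 85.0. Both CTRL folds were below the medians of the 309 regions (5.90 in CTRL replicate 1 and 7.99 in CTRL replicate 2). Ap3d1 followed with 10.2 in C26 replicate 2, 7.54 in CTRL replicate 1 and 12.3 in CTRL replicate 2. Gemin4, whose region also touched Dbil5, had 9.52, 9.44 and 11.7 in the same order. These 3 were ranked by their lowest percentile, and all their percentiles in the 3 lists with a peak lay between 72.8 and 85.0.

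Next in strength was Rab4b, a GTPase of endosomal recycling, whose region had a fold enrichment of 9.40 in C26 replicate 2, 9.63 in CTRL replicate 1 and 10.1 in CTRL replicate 2. Rab3gap2, a subunit of the regulator of Rab3, had 8.07 in C26 replicate 2, 10.2 in CTRL replicate 1 and 17.7 in CTRL replicate 2. Ap4e1, a subunit of the AP-4 adaptor of the trans-Golgi, had 7.76, 13.2 and 9.79 in that order. Numb had 6.90, 7.76 and 12.9. In the fixed list of 93 Rab and Vps genes only Rab4b was touched at its end, and Vps13d held a region inside, so the list as a whole gave 1.08%, close to the 0.699% of all 21883 coding genes.

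Crebzf, which encodes a leucine-zipper protein of the CREB and ATF family that binds DNA poorly by itself, was the only gene of the list of known CREB1 targets and of that of cAMP and CREB signaling with a C26-replicate-1-missing region at its end. The region (chr7:90442375-90443333) had a fold enrichment of 9.27 in C26 replicate 2, 7.49 in CTRL replicate 1 and 15.2 in CTRL replicate 2. The only core in the 250 bases before its start began 211 bases before the start and lay 172 bp from the summit. Its nearest C26 replicate 1 peak was 312108 bp away. That is 1 of 39 known targets, against 5 in the mirror class and 18 in regions of all 4 lists, where all 21883 coding genes had 153, 2527 and 2798.

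Also among the 20 strongest was Cd74, the invariant chain of MHC class II, with a fold enrichment of 9.07 in C26 replicate 2, 7.44 in CTRL replicate 1 and 12.2 in CTRL replicate 2. A C26 replicate 1 peak lay 1031 bp from that region. Irak3, an inhibitor of Toll-like receptor signaling, had 6.90 in C26 replicate 2, 6.69 in CTRL replicate 1 and 9.26 in CTRL replicate 2. The region shared by Il17rc, a subunit of the interleukin-17 receptor, and Creld1 had 6.98 in C26 replicate 2, 13.2 in CTRL replicate 1 and 10.6 in CTRL replicate 2. Nlk, a kinase of Wnt signaling, had 6.78, 11.5 and 11.9 in that order. The marker lists of leukocytes, endothelial cells, fibroblasts, adipocytes and Schwann cells, and colon epithelium and C26 tumor had 0 genes with a C26-replicate-1-missing region at an end or inside. Lists of 12 to 20 genes hold less than 1 gene at the share of all coding genes (0.699%). In the other classes the leukocyte list had 1 gene at the end of a region of all 4 lists, the adipocyte and Schwann cell list had 1 at the end of a mirror region, and the fibroblast list had 2 with a CTRL-only region inside.

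The rest of the 20 had fold enrichments in C26 replicate 2 between 6.80 and 7.78. They were Kbtbd4 with Ndufs3, Stoml1, Alg11 with the copper transporter Atp7b, Gstm4, Slc9a8, Chchd2, Zfp213 and Rnf4. Rnf4, which attaches ubiquitin to SUMO-modified proteins, was the weakest of the 20 by its lowest percentile, with 6.80 in C26 replicate 2, 7.44 in CTRL replicate 1 and 6.56 in CTRL replicate 2.

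**Figure D5:**
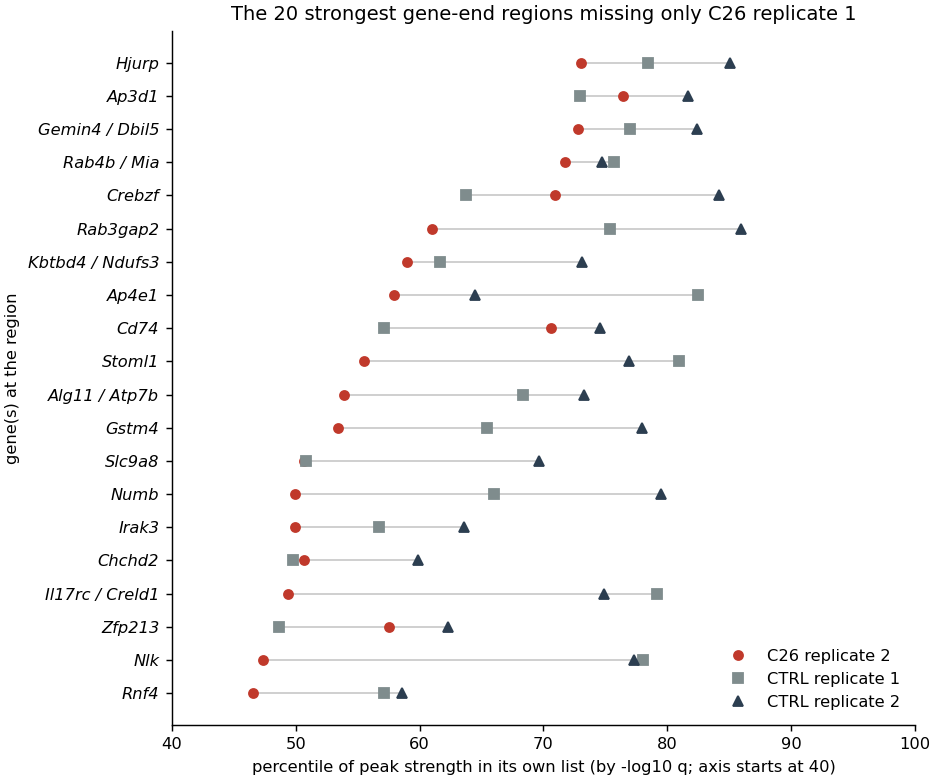
Percentile of peak strength within C26 replicate 2, CTRL replicate 1 and CTRL replicate 2 (horizontal axis) for the 20 strongest gene-end regions (vertical axis, by gene). Grey lines join the 3 values of a region; C26 replicate 2 was at 73.0 for Hjurp and 46.5 for Rnf4.

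Mitochondrial function is named in the title of the series. The counts of mitochondrial genes with a region at an end stand beside 153 of 21883 coding genes (0.699%), and lists of this size hold few genes, so nothing particular to mitochondrial genes is read from them. Complex I had 1 of 38 genes (2.63%), Ndufs3, a core subunit of the complex. Its region, shared with Kbtbd4, had a fold enrichment of 7.78 in C26 replicate 2, 8.58 in CTRL replicate 1 and 11.0 in CTRL replicate 2. Complexes II to V with cytochrome c had 3 of 51 (5.88%). Among them Cox7a1, the subunit of cytochrome c oxidase used in heart and skeletal muscle, had 5.77 in C26 replicate 2, 6.57 in CTRL replicate 1 and 7.34 in CTRL replicate 2. Uqcrh, a subunit of complex III, had 6.86 in C26 replicate 2, 9.23 in CTRL replicate 1 and 5.90 in CTRL replicate 2. Atp5c1, the gamma subunit of ATP synthase, had 4.72, 4.36 and 7.80 in that order. The Uqcrh region also touched Lrrc41, and the Atp5c1 region also touched Kin. Cox7a1 and Atp5c1 carried no core in the 250 bases before their starts.

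Assembly factors of the respiratory chain had 4 of 40 genes (10.0%), the highest share at gene ends among the 30 lists. The same list had 9 genes in the mirror class, 13 in regions of all 4 lists and 4 in CTRL-only regions, where all coding genes had 2527, 2798 and 1692. Cox17, a copper chaperone for cytochrome c oxidase, had a fold enrichment of 5.62 in C26 replicate 2, 7.11 in CTRL replicate 1 and 9.30 in CTRL replicate 2. Cox16 had 5.12 in C26 replicate 2, 11.9 in CTRL replicate 1 and 9.22 in CTRL replicate 2, and its percentile was 15.9 in C26 replicate 2, against 78.5 and 63.4. Coa4 had 6.29, 4.68 and 9.13, and Tmem126b, an assembly factor of complex I, had 6.27, 5.88 and 10.8, in C26 replicate 2, CTRL replicate 1 and CTRL replicate 2. The Tmem126b region also touched Dlg2. The mitochondrial ribosome had 2 of 78 genes, Mrpl20 (5.44, 8.46 and 9.71) and Mrps5 (6.32, 4.01 and 6.09). Import, dynamics and quality control had 2 of 51, the import receptor Tomm70a (6.98, 5.22 and 9.73) and Mief2 (5.14, 4.59 and 10.2), in the same order of libraries. The Mrps5 region also touched Zfp661. The nearest C26 replicate 1 peak lay 590 bp from the Mief2 region and 2020 bp from that of Mrps5. It lay 8276 bp from that of Mrpl20 and 109075 bp from that of Tomm70a. A core began 211 bases before the start of Coa4, 66 before that of Mrpl20 and 239 before that of Zfp661. The promoters of Cox16, Tmem126b, Tomm70a and Mief2 had none before the start. The tricarboxylic acid cycle and fatty acid oxidation had 0 of 39.

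Other housekeeping and muscle lists had few regions, with 0.699% of all coding genes touched at an end and 0.407% inside as the background. At gene ends, Psmb1 was the only one touched among 49 proteasome genes, Rps12 among 87 cytosolic ribosomal genes, Eif4e2 among 71 translation factors and Prpf4b among 67 splicing genes. Psma6 and Psmb3 of the proteasome list and Rpl3l of the ribosomal list held a region inside. These were named after their values were seen. Rps12 had a fold enrichment of 6.60 in C26 replicate 2, 10.1 in CTRL replicate 1 and 7.99 in CTRL replicate 2. Of 179 ubiquitin genes 0 were touched, near the 0.699% of all coding genes. The lists of muscle atrophy (29 genes), sarcomere and contraction (40), myogenic regulators (23) and circadian clock (23) had 0 genes at an end or inside, which at these list sizes is near the background.

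Away from gene ends, the strongest C26-replicate-1-missing region lay outside genes, 133215 bp from Cand1, an exchange factor of cullin ligases. Its fold enrichment was 9.90 in C26 replicate 2, 11.7 in CTRL replicate 1 and 13.5 in CTRL replicate 2. The next lay inside Hdac5, a class IIa histone deacetylase that represses muscle genes, at chr11:102219775-102220466. It had 10.0 in C26 replicate 2, 10.3 in CTRL replicate 1 and 20.8 in CTRL replicate 2, which was the highest CTRL replicate 2 value of all 309 regions. Hdac5 held a second region at chr11:102216072-102217089, with 5.87, 11.9 and 16.5 in the same order, so both of its regions were strong in the CTRL lists. A region 1202 bp from Ier2, an immediate early gene, had 9.11 in C26 replicate 2, 8.96 in CTRL replicate 1 and 9.84 in CTRL replicate 2, and a C26 replicate 1 peak lay 737 bp from it. Another of the 5 strongest lay inside Acaca, whose enzyme makes malonyl-CoA, with 8.24 in C26 replicate 2, 6.41 in CTRL replicate 1 and 15.0 in CTRL replicate 2.

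Besides Hdac5, 5 genes held 2 regions each inside the gene or at its ends: Gpt2, Pde4b, Rilpl1, Wwox and Zbtb16. Where regions outside genes are counted with their nearest gene, Mn1 had 3, and Gata5 and Zswim4 had 2 each. Pde4b degrades cAMP and is itself a CREB1 target. One of its regions (chr4:102510772-102511727) had a fold enrichment of 7.48 in C26 replicate 2, 9.48 in CTRL replicate 1 and 7.99 in CTRL replicate 2. The other (chr4:102569989-102570551), 131 bp from an internal coding start, had 4.59, 4.21 and 4.47, near the low end of every list. A region inside Pde4d, its paralog, had 7.48 in C26 replicate 2, 4.06 in CTRL replicate 1 and 8.14 in CTRL replicate 2. A region 154 bp from an internal start of Creb5, a CREB-family factor, had 5.77, 4.40 and 4.90. The nearest C26 replicate 1 peak lay 1134 bp from the Pde4d region and 285522 bp from that of Creb5. It lay 26748 bp and 3681 bp from the first and second Pde4b regions. Pde4b, Pde4d and Creb5 were 3 of 73 genes of cAMP and CREB signaling with a region inside (4.11%, beside 0.407% of all coding genes). The list had 6 such genes in the mirror class, 4 in regions of all 4 lists and 4 in CTRL-only regions. All 21883 coding genes had 502, 429 and 725 in the same order. Gene length was not taken into account in these counts.

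The glycolysis and glycogen list had 3 of 29 genes with a region inside (10.3%), beside 89 of 21883 coding genes (0.407%), and none at an end. The same list had 2 genes with a mirror region inside, 3 with one of all 4 lists and 5 with a CTRL-only one. All coding genes had 502, 429 and 725 in the same order, and gene length was not taken into account. The 3 genes of this class were named after their values were seen. Pfkm, the muscle phosphofructokinase, had a fold enrichment of 11.0 in C26 replicate 2, 4.79 in CTRL replicate 1 and 12.8 in CTRL replicate 2. Pygm, the muscle glycogen phosphorylase, had 4.95, 7.10 and 6.02, and Gyg, which primes glycogen, had 4.63, 5.42 and 8.17, in that order. Among the 3 libraries with a peak, CTRL replicate 1 had the lowest fold for Pfkm, and C26 replicate 2 had the lowest for Pygm and Gyg. Folds are on each library's own scale, so this order shows no difference in binding.

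The order of the libraries varied between regions. The C26 replicate 2 percentile was below both CTRL percentiles in 197 of the 309 regions, between them in 84 and above both in 28. It was highest relative to the CTRL mean inside Wwox, an oxidoreductase gene that spans a fragile site (percentile 70.6 in C26 replicate 2, against 29.2 and 6.49 in CTRL replicates 1 and 2). Next came a region 42410 bp from the transcription factor gene Ets2 (72.8, against 24.2 and 22.7) and one inside Scn4a, the sodium channel of skeletal muscle (81.7, against 14.3 and 54.6). Regions near Actg1 and Hcfc2 completed the highest 5, and of the 5 only that of Hcfc2 was near a gene end. The lowest 5 lay at Khdc4, Sec24b, Rnf181, Mad2l1 and Ciao2a, between 17 and 107 bp from a coding start. Khdc4 had percentiles of 1.77 in C26 replicate 2, against 61.8 in CTRL replicate 1 and 80.9 in CTRL replicate 2. Sec24b, a subunit of the COPII vesicle coat, had 1.56, against 82.2 and 58.8. All 5 stood below the 5th percentile in C26 replicate 2.

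The regions were spread over all autosomes and the X chromosome. As a share of regions with a peak in both CTRL lists, they ran between 2.54% on chromosome 13 and 4.61% on chromosome 1 among autosomes, and were 1.89% on the X chromosome (3 regions). The nearest region of all 4 lists lay a median of 101461 bp away, against 120327 bp for the mirror class and 113896 bp for CTRL-only regions. It lay within 10000 bp of 10.0% of the C26-replicate-1-missing regions (7.16 to 13.9%), against 7.01% and 7.42%, and these intervals overlapped.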

How the data were processed

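Phospho-CREB1 ChIP-seq peaks were analysed in 2 C26 and 2 CTRL libraries. The submitters' processing notes name MACS2 2.1.4, Bowtie2 2.3.5.1, SAMtools 1.6, FastQC 0.11.2 and Picard, and the build mm10 (GRCm38). Per the labels, the authors called peaks in each library against its own input at a q threshold of 0.05. What a further filter in the file labels removed is not given in the sources used here. The authors' deposited lists give peak positions, a fold enrichment over input and a −log10 q-value for each peak. Percentiles were taken within 1 list, and folds are on each library's own scale. Stronger immunoprecipitation or deeper sequencing gives more peaks, and depth is unknown.

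Regions, classes and positions were computed with Python 3.11.15, pandas 2.3.3, scipy 1.17.1 and statsmodels 0.14.6, and the region and test code was checked on simulated data. Gene spans came from RefSeq GRCm38.p6, the same build, and promoters from its table (32851 promoters, not complete). Location was compared by Fisher's exact test. Intervals are 95% Wilson intervals, which cover counting error over regions; a count of 0 was bounded by 3 counts. Gene-end regions without a table entry were not searched for motifs, and peaks away from starts have no sequence here.

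The members and gene lists were chosen with earlier results of these data known. The named genes are the 20 strongest members near gene ends, the 5 strongest away from them, the 5 with the highest and the 5 with the lowest C26 replicate 2 percentile minus the CTRL mean, the 3 regions on each side of the rule's boundary, and up to 4 per list of mitochondrial, CREB1, clock and muscle genes. Strength is the lowest of a region's 3 percentiles. One region that this rule names is not reported here. Alternatives were other overlaps, thresholds, windows, summits, trimmed lists and each library left out.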

Additional observations from a re-analysis of the deposited data

How the results depend on the processing

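The number of regions missing only C26 replicate 1 stayed within 1.5 times of 309 under every other overlap rule, gap and q threshold tried. With each list trimmed to the length of the shortest it was 149. With 1 library left out of the rule it ran between 354 and 3288, the highest being without C26 replicate 1 (3288) and without C26 replicate 2 (3069), where the rule by its construction no longer asks for the same class; without CTRL replicate 1 it was 462. On trimmed lists the odds ratio for lying near a gene end was 0.649 (Fisher's exact test, p = 0.0525) against regions missing only C26 replicate 2 and 0.829 (p = 0.469) against CTRL-only regions, and the share near a gene end was 74.5%. Left-out CTRL libraries gave odds ratios of 0.912 to 0.954 against CTRL-only regions, and shares near a gene end of 37.7% (without CTRL replicate 1) and 41.0% (without CTRL replicate 2). The cause was not tested. Against regions of all 4 lists the direction and the call held in all 10 alternatives. No promoter of the class held the full CRE in any of the 7 alternatives run for it. No paired analysis was possible because the tests compare classes of regions and not groups of libraries. Peak calls per library, without read counts, limit what a missing peak can show.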
